A study of Homo sapiens with 7 samples.

Results

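The pyruvate dehydrogenase complex of the mitochondrial matrix turns pyruvate from glycolysis into acetyl-CoA, and its activity is set largely by reversible phosphorylation. Pyruvate dehydrogenase kinases (PDK) phosphorylate the catalytic E1 component and switch the complex off, which spares pyruvate for lactate or for other routes, and pyruvate dehydrogenase phosphatases (PDP) remove the phosphate and switch it on again. PDK4 is known for its induction in fasting and when fatty acids are burned, and it is repressed by insulin, whereas PDK1 is a known target of the hypoxia-inducible factor (HIF) in many tumor cells. The genes of this system were read on Human Exon 1.0 ST arrays in CSC, the CD44+CD24- cells of the androgen-independent prostate carcinoma line DU145, and in bulk DU145 cells.

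Of the 10 genes chosen, 4 encode kinases (PDK1, PDK2, PDK3 and PDK4), 2 encode phosphatase catalytic subunits (PDP1 and PDP2) and 4 encode parts of the complex itself (PDHA1, PDHB, DLAT and PDHX). A gene was read from a transcript cluster, the set of probes that stands for a locus, only where the annotation of the array gave that cluster this symbol alone, and the brightest such cluster over all arrays was used. By this rule 8 of the 10 genes had a value, out of 14232 genes named in this way. The clusters that name PDK2 also name SAMD14, and no cluster was matched to PDP2 alone, so neither gene was read. The set was chosen from results of this same comparison of CSC and DU145 arrays, and PDK4 and PDK1 are on the study's own list of changed genes, so the levels and changes of its genes are described here and not tested.

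There were 4 CSC arrays and 3 DU145 arrays. According to the methods, the sorted CD44+CD24- cells were grown as floating spheroids in serum-free medium with EGF, bFGF and insulin, and groups of spheroids were pooled for RNA, whereas bulk DU145 cells were grown attached in medium with serum. The sample labels describe the CSC only as sorted cells and give the culture of the DU145 line alone. Both groups come from the same line and neither received a drug. Sorting, attachment, medium, serum and the added EGF, bFGF and insulin differ together between the groups and cannot be told apart. The spheroids also held some damaged differentiated cells by the study's own description. Whether replicate arrays stand for independent cultures is not said, so errors and p-values here cover only the variation among the RNA samples at hand, part or all of which may be technical.

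All values are log2 expression values, in which a difference of 1 is a doubling, and the number of arrays limits their precision. The median of an array ran from 5.88 to 5.91 in CSC and from 5.77 to 5.89 in DU145 cells. The second principal component, with 16.2% of the variance, set CSC array 1 (44.2) apart from CSC array 4 (-37.6). CD44 transcript measured 8.25, 7.60, 8.07 and 7.09 on CSC arrays 1 to 4, against 8.79, 8.62 and 9.39 on DU145 arrays 1 to 3, and CD24 measured 9.09, 8.39, 8.55 and 8.11 in CSC, against 8.67, 8.78 and 9.35 in DU145 cells. Neither marker of the sort passed the test (adjusted p from limma 0.128 and 0.449), although each CSC array lay below each DU145 array for CD44. The sort reads protein at the cell surface, which the arrays do not measure. In the study's own Q-PCR, spheroids and DU145 cells had similar CD44 mRNA, and CD24 mRNA was significantly lower in spheroids. On the arrays the groups overlapped for CD24 and not for CD44, and the reason for this difference was not tested. Of 7 markers of fibroblasts, leukocytes and endothelium, 0 passed in limma (2 at an unadjusted p of at most 0.05, and 0 after adjustment without moderated variances). Over all clusters 4335 met that unadjusted limit in limma, against 286 (1.30%) that passed, so a few such genes are not by themselves an excess. All clusters here are the 14432 with 1 gene symbol, the 2408 with several and the 5171 with none. CD68, a lysosomal glycoprotein of macrophages that many cell lines also express, ran from 8.95 to 9.88 in CSC and from 8.09 to 8.79 in DU145 cells, and its part in the results below was not tested.

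PDK4 is encoded on chromosome 7 and PDK1 on chromosome 2. Because both kinases were higher in CSC, the bases just upstream of their transcription starts are shown, as RefSeq gives them for the GRCh38.p14 build. The PDK4 stretch is chr7:95596517-95596766 on the minus strand, and the PDK1 stretch is chr2:172555840-172556089 on the plus strand, upstream of one of the gene's 2 annotated starts. Capitals mark matches, on either strand, to the motifs searched.
PDK4: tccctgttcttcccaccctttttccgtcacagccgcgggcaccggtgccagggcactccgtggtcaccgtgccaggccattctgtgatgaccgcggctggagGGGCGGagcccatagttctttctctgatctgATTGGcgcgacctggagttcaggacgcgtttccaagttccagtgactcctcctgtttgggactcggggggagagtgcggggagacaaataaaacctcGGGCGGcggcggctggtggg
PDK1: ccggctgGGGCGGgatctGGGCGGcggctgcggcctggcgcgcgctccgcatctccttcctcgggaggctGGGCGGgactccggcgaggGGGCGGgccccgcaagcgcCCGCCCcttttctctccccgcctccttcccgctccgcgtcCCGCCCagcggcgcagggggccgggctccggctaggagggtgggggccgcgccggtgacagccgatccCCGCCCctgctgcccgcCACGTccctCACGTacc
The HIF core motif was searched as ACGTG. The E-box, which contains it, was searched as CACGTG. The forkhead (FOXO) motif was GTAAACA and the nuclear receptor motif TGACCT. A pair of general promoter motifs, the CCAAT box and the GC box GGGCGG, were added after the sequences had been seen.

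The PDK1 stretch held 2 matches to the HIF core on the strand opposite to the one printed, starting 17 and 8 bases before the start, and 7 matches to the GC box. The PDK4 stretch held no match to the HIF core, the E-box, the forkhead motif or the nuclear receptor motif. It held 1 CCAAT box, 117 bases before the start, and 2 GC boxes. Of 35116 RefSeq promoter windows of the same 250 bases, 18.5% held the HIF core, 6.34% the E-box, 2.98% the forkhead motif, 12.1% the nuclear receptor motif, 32% the CCAAT box and 42.6% the GC box. The stretch upstream of the other PDK1 start, chr2:172555123-172555372, held no HIF core. PDP1 had no window that could be used and was not searched. Among the other measured genes with a window, the HIF core matched once upstream of PDK3, of DLAT and of 1 of the 2 PDHX starts. PDHB held an E-box with the HIF core inside it and a further HIF core, and PDHA1 held neither. A match is a run of letters and not a site of binding, and a missing match says only that those letters are not in this window.

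Of the 3 kinases measured, PDK4 had the largest log2 change. PDK4 measured 6.04, 6.21, 6.30 and 6.72 on CSC arrays 1 to 4, against 4.28, 4.62 and 4.30 on DU145 arrays 1 to 3. The groups did not overlap, and the lowest CSC array lay 1.42 above the highest DU145 array. The mean was 6.32 ± 0.29 in CSC (SD, n = 4) and 4.40 ± 0.19 in DU145 cells (SD, n = 3), a log2 change of 1.92 (standard error 0.18) or 3.77-fold. Of the 14232 genes, 71 had a larger increase. The cluster was not a bright one, as 42.5% of all clusters were dimmer on average, and it lay below the median of all clusters. The DU145 mean of 4.40 is lower than that average, and how much of it is background signal was not tested. In such bulk RNA, more cells that express a gene and more RNA per cell cannot be told apart.

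PDK1, the kinase that among the 4 isoenzymes can phosphorylate all the known sites of the E1 alpha subunit, came next among the kinases. It measured 8.02, 8.13, 7.81 and 8.37 on CSC arrays 1 to 4, against 6.86, 7.42 and 7.23 on DU145 arrays 1 to 3. The groups did not overlap, and the gap between them was 0.39. The log2 change was 0.91 (standard error 0.18), or 1.88-fold. That is under the limit of 1 that the study set for its list, on which PDK1 stands. The methods state 3 replicates per condition, where 4 CSC arrays were used here, and the reason for the difference was not tested. PDK3, a kinase that is less sensitive to inhibition by pyruvate than its relatives, measured 6.04, 5.93, 5.93 and 6.42 in CSC, against 5.57, 5.49 and 6.01 in DU145 cells. CSC arrays 2 and 3 held the same deposited value, and DU145 array 3 lay above both, so the groups overlapped. The PDK3 log2 change was 0.39 (standard error 0.18).

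**Figure D1:**
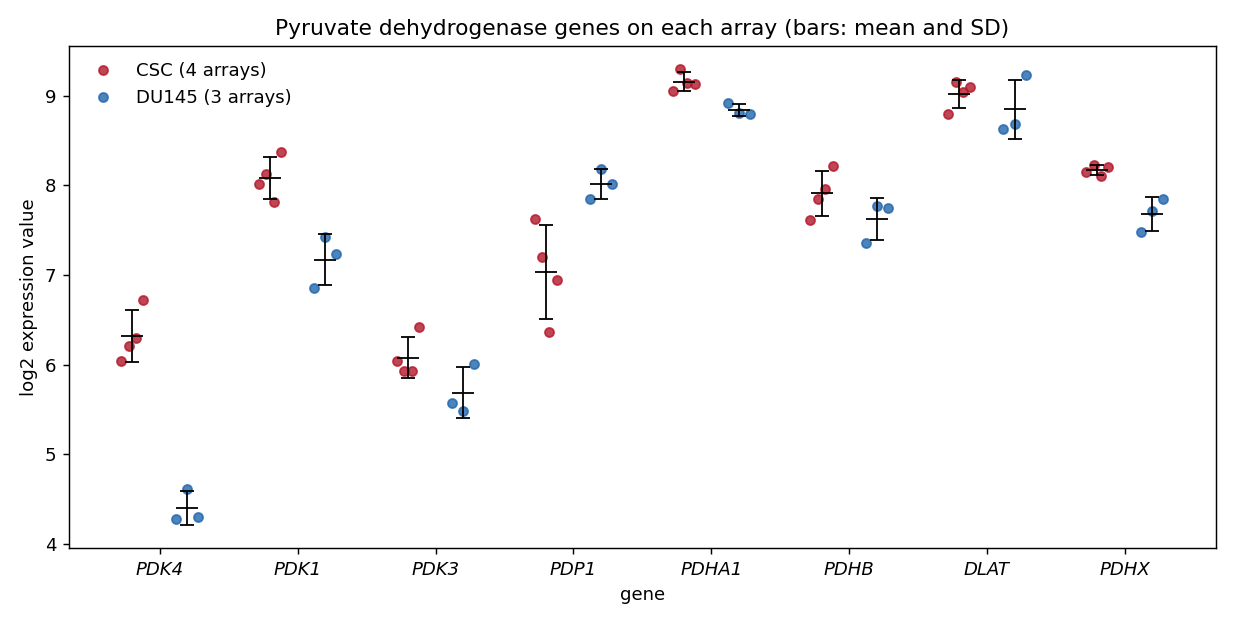
Log2 expression value (vertical axis) of the 8 measured genes on each array, with CSC arrays in red and DU145 arrays in blue. Black bars give the mean and SD of each group. PDK4, from 6.04 to 6.72 in CSC and from 4.28 to 4.62 in DU145 cells, shows the widest gap between the groups, and PDP1 is the one gene lower in CSC.

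PDP1, the catalytic subunit of the calcium-stimulated phosphatase that reactivates the complex, ran the other way. It measured 7.62, 7.20, 6.37 and 6.94 on CSC arrays 1 to 4, against 7.85, 8.18 and 8.01 on DU145 arrays 1 to 3. All CSC arrays lay below all DU145 arrays, with a gap of 0.23 between CSC array 1 and DU145 array 1. The means were 7.03 ± 0.52 in CSC (SD, n = 4) and 8.01 ± 0.17 in DU145 cells (SD, n = 3), a log2 change of -0.98 (standard error 0.29), so that DU145 cells had 1.98 times the CSC level. The spread in CSC was wide, as 88% of all clusters had a smaller SD there. Without CSC array 3 the log2 change was -0.76, and without CSC array 1 it was -1.18.

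The subunits of the complex differed less between the groups. PDHA1, the alpha subunit of E1 that carries the phosphorylation sites, measured 9.05, 9.30, 9.14 and 9.13 on CSC arrays 1 to 4, against 8.92, 8.81 and 8.80 on DU145 arrays 1 to 3. The groups did not overlap, but the gap was only 0.13, and the log2 change was 0.31 (standard error 0.08). PDHB, the beta subunit of E1, measured 7.61, 7.85, 7.96 and 8.22 in CSC, against 7.36, 7.77 and 7.75 in DU145 cells. CSC array 1 lay among the DU145 arrays, and the log2 change was 0.28 (standard error 0.17). DLAT is the E2 acetyltransferase that forms the core of the complex. It measured 8.80, 9.15, 9.04 and 9.10 in CSC, against 8.63, 8.68 and 9.23 in DU145 cells. The highest DLAT value of all arrays was that of DU145 array 3, and the log2 change was 0.18 (standard error 0.17).

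PDHX, the E3-binding protein that anchors dihydrolipoamide dehydrogenase to the core, showed the largest change of the 4 subunits. It measured 8.15, 8.23, 8.11 and 8.20 on CSC arrays 1 to 4, against 7.48, 7.71 and 7.85 on DU145 arrays 1 to 3. The CSC arrays lay within 0.12 of each other, a spread narrower than that of most clusters, since only 10.2% had a smaller SD in CSC. All of them lay above the DU145 arrays, with a gap of 0.27. The log2 change was 0.50 (standard error 0.10). For the 4 subunits together the median log2 change was 0.30, beside 0.08 over all clusters and 0.10 over all named genes.

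**Figure D2:**
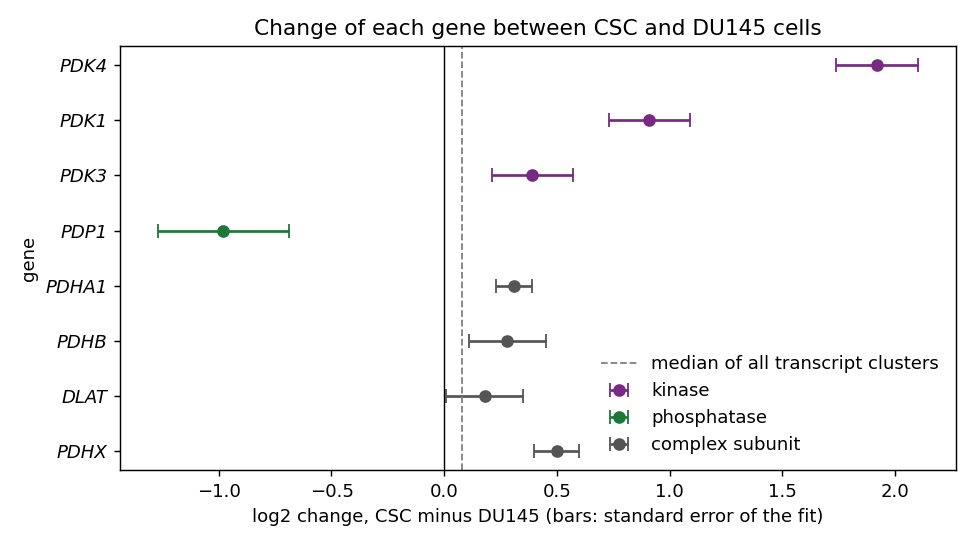
Log2 change between CSC and DU145 cells (horizontal axis, CSC minus DU145) of the 8 genes, by role. Points are estimates of the linear model and bars their standard errors, and the dashed line is the median of all clusters, 0.08. The kinases lie to the right (0.39 to 1.92), the subunits between 0.18 and 0.50, and the phosphatase PDP1 at -0.98.

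In all, 7 of the 8 genes had a higher mean and 1 a lower mean in CSC. The arrays of the groups did not overlap for PDK4, PDK1, PDHA1 and PDHX, which were higher in CSC, and for PDP1, which was lower. That is 5 of 8 genes, where 16.9% of all clusters did not overlap (10.8% higher and 6.13% lower in CSC). The methods set limits of 0.05 on the false discovery rate and 1 on the log2 change in either direction. In limma 1.30% of all clusters lay within both limits (0.722% higher and 0.577% lower in CSC), and 1 of the 8 genes, PDK4, was among them. Because the set was chosen from this comparison, that place was fixed by the choice and is no test of PDK4, and nothing is read from either count. Over the fits that left out an array the PDK4 log2 change ran from 1.78 to 2.03.

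The genes did not order the arrays of a group alike. CSC array 4 was the highest CSC array for PDK1, PDK3, PDK4 and PDHB, and CSC array 1 was the lowest for PDK4, PDHA1, PDHB and DLAT and the highest for PDP1. DU145 array 1, which also had the lowest array median, was the lowest DU145 array for 6 of the 8 genes, and for 5 of the 8 after the array medians were set equal. Without CSC array 1 and without CSC array 4, the arrays at the ends of the second component, the PDK4 log2 change was 2.01 and 1.78. Leaving out any one array kept the sign of the change in each of the 8 genes, with ranges of 0.76 to 1.03 for PDK1, 0.27 to 0.55 for PDK3, -1.18 to -0.76 for PDP1, 0.27 to 0.35 for PDHA1, 0.15 to 0.39 for PDHB, 0.07 to 0.37 for DLAT and 0.40 to 0.58 for PDHX.

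Genes with a profile like that of PDK4 were sought by the root mean square difference between profiles over the 7 arrays, after each gene's mean had been subtracted. The 5 closest of 14231 genes were NUPR1, a small stress-induced chromatin protein (difference 0.142), EPCAM, an epithelial adhesion molecule (0.196), EGLN3, a prolyl hydroxylase that marks HIF for destruction (0.226), CGN, the tight junction protein cingulin (0.230), and TSPAN13, a tetraspanin (0.232). Over all genes the median difference was 0.938. NUPR1 measured 7.92, 8.14, 8.19 and 8.45 on CSC arrays 1 to 4, against 6.16, 6.25 and 6.41 on DU145 arrays 1 to 3, so that like PDK4 it was lowest on array 1 and highest on array 4 of the CSC. Among the other genes of the system PDK1 came nearest to PDK4, at place 214 with a difference of 0.526, PDHX stood at place 1041 and PDP1 at place 14099. The measure includes the step between the groups as well as the spread within them. When an array was left out, 2 to 4 of the 5 genes stayed among the closest.

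**Figure D3:**
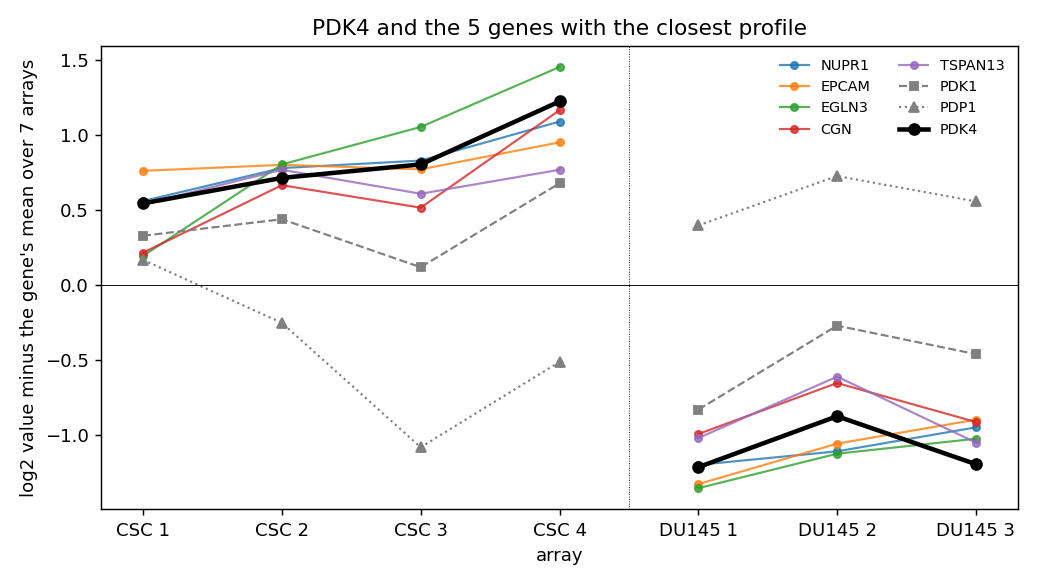
Log2 value minus the gene's own mean (vertical axis) on each of the 7 arrays for PDK4 (black), its 5 closest genes (colors), PDK1 (grey squares) and PDP1 (grey triangles). Lines join arrays of a group to guide the eye and imply no order. PDK4 and its closest genes are high on the 4 CSC arrays and low on the 3 DU145 arrays, whereas PDP1 is above its own mean on the DU145 arrays and below it on CSC arrays 2 to 4.

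Genes linked to pyruvate dehydrogenase outside the 10 were taken from 8 lists of textbook knowledge. The lists were written with the study's own gene list and earlier results of these arrays known. Their genes were read in the same fit across all clusters, and counts over the lists are a description and no test of the lists. Of 94 measured genes on these lists 8 passed, all higher in CSC, and 86 did not pass, where 1.30% of all clusters passed. That share is 286 clusters, whereas 4335 clusters had an unadjusted p of at most 0.05 in limma. Counts of listed genes at the unadjusted limit are to be read against that larger number, and no excess is read from them. The median log2 change was 0.27 over the listed genes and 0.08 over all clusters. Of 5 other genes of the complex and its cofactors 0 passed in limma (1 at an unadjusted p of at most 0.05, 0 after adjustment without moderated variances). DLD, the dihydrolipoamide dehydrogenase that is the E3 component, had a log2 change of -0.02 (limma, standard error 0.13 and adjusted p = 0.95). LIAS, which makes the lipoyl group of the E2 arm, had a log2 change of 0.53 (limma, standard error 0.19 and adjusted p = 0.199).

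Of 11 genes of pyruvate entry and other fates of pyruvate, MPC1 rose and 10 did not pass. In limma 2 of the 11 had an unadjusted p of at most 0.05. MPC1 is a subunit of the carrier that brings pyruvate into mitochondria, where the complex acts on it. It measured 7.73, 7.63, 7.56 and 7.03 on CSC arrays 1 to 4, against 6.03, 6.25 and 6.14 on DU145 arrays 1 to 3. The groups did not overlap, and MPC1, unlike PDK4, was lowest on CSC array 4. Its log2 change was 1.35 (limma, standard error 0.18 and adjusted p = 0.0263). The call was lost in 5 of the 7 fits that left out an array (CSC arrays 2 and 3 and each DU145 array), with limma adjusted p-values from 0.00688 to 0.0963 over the 7. MPC2, its partner in the carrier, had a log2 change of 0.44 (limma, standard error 0.13 and adjusted p = 0.141) with overlapping groups. LDHA, the lactate dehydrogenase subunit that favors lactate, had a log2 change of 0.18 and an adjusted p of 0.281 in limma.

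Downstream of the complex, 0 of 11 genes of the tricarboxylic acid cycle passed in limma (2 at an unadjusted p of at most 0.05, 0 after adjustment without moderated variances), with a median log2 change of 0.27. Citrate synthase (CS), which takes up the acetyl-CoA, had a log2 change of 0.02 (standard error 0.13). Of 7 genes of the sister complexes for 2-oxoglutarate and branched-chain ketoacids and of their kinase and phosphatase, 0 passed in limma (1 at an unadjusted p of at most 0.05, 0 after adjustment without moderated variances). BCKDK, the kinase of the branched-chain complex and a relative of the PDK genes, measured 6.95, 7.40, 7.55 and 7.35 in CSC, against 7.03, 7.34 and 7.80 in DU145 cells. These groups overlapped, and the log2 change was -0.07 (limma, standard error 0.22 and adjusted p = 0.87).

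**Figure D4:**
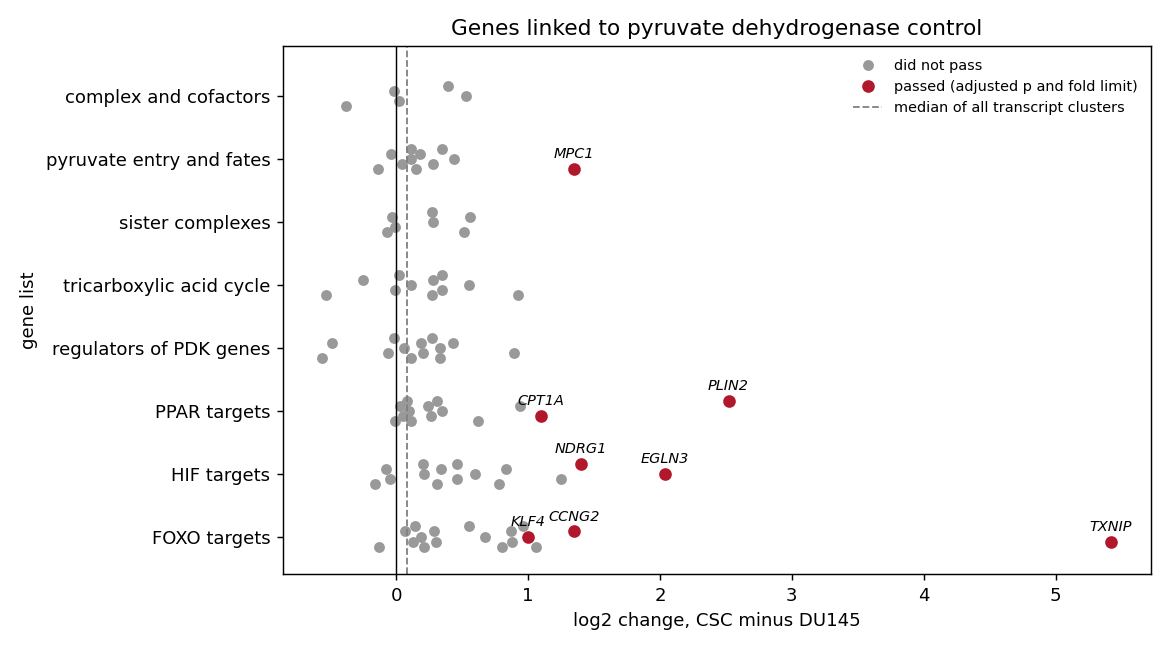
Log2 change between CSC and DU145 cells (horizontal axis, CSC minus DU145) of each measured gene in 8 lists of genes linked to pyruvate dehydrogenase. Red points, which are named, passed both limits of the methods, grey points did not pass, and the dashed line is the median of all clusters. The 8 genes that passed lie to the right of 0, in the lists of pyruvate entry and of PPAR, HIF and FOXO targets.

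Of 13 transcription factors and cofactors known to control PDK genes 0 passed in limma (3 at an unadjusted p of at most 0.05, 0 after adjustment without moderated variances). PPARG, a lipid-sensing nuclear receptor, measured 6.56, 6.26, 6.79 and 6.71 in CSC, against 6.81, 7.24 and 7.38 in DU145 cells, a log2 change of -0.56 (limma, standard error 0.18 and adjusted p = 0.179). EPAS1, which encodes HIF-2 alpha, measured 7.78, 8.37, 8.66 and 8.53 in CSC, against 6.84, 7.53 and 7.94 in DU145 cells, a log2 change of 0.89 (limma, standard error 0.32 and adjusted p = 0.2). The CSC values of PPARG all lay below those of DU145 cells, by as little as 0.01, and those of EPAS1 overlapped.

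Lists of other genes that respond to the same regulators held the remaining calls. Of 14 PPAR target genes PLIN2 and CPT1A rose and 12 did not pass. An unadjusted p of at most 0.05 in limma was reached by 4 of the 14. PLIN2, a coat protein of lipid droplets, measured 10.31, 10.23, 10.21 and 10.39 in CSC, against 7.72, 7.65 and 7.93 in DU145 cells, a log2 change of 2.52 (limma, standard error 0.09 and adjusted p = 0.000253), and passed without each array in turn. CPT1A, the carnitine palmitoyltransferase that admits fatty acids to mitochondria, measured 7.70, 7.68, 7.94 and 7.78 in CSC, against 6.43, 6.53 and 7.07 in DU145 cells. Its log2 change was 1.10 (limma, standard error 0.17 and adjusted p = 0.0347), and it passed without DU145 array 3 but not without any other single array. ANGPTL4, a secreted inhibitor of lipoprotein lipase, had an adjusted p of 0.0383 from limma and a log2 change of 0.94, under the fold limit. The other 11 genes had adjusted p-values above the threshold, and the median log2 change of the list was 0.25.

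Of 15 HIF target genes EGLN3 and NDRG1 rose and 13 did not pass, with a median log2 change of 0.46. In limma 6 of the 15 had an unadjusted p of at most 0.05. Higher means in CSC were found for 12 and lower means for 3, among them SLC2A1 (log2 change -0.08) and PGK1 (-0.16), whose groups overlapped. EGLN3 measured 6.67, 7.28, 7.53 and 7.93 on CSC arrays 1 to 4, against 5.12, 5.35 and 5.45 on DU145 arrays 1 to 3, a log2 change of 2.04 (limma, standard error 0.29 and adjusted p = 0.0292). NDRG1, a stress-responsive cytoplasmic protein, had a log2 change of 1.40 (limma, standard error 0.18 and adjusted p = 0.023). EGLN3 kept its call in 2 of the 7 fits that left out an array (CSC arrays 1 and 4) and NDRG1 in 3 (CSC arrays 1 and 4 and DU145 array 3), with log2 changes from 1.85 to 2.27 and from 1.30 to 1.57. Of 18 FOXO target genes TXNIP, CCNG2 and KLF4 rose and 15 did not pass, with a median log2 change of 0.61. At an unadjusted p of at most 0.05 in limma there were 10 of the 18. TXNIP, an arrestin-like protein that curbs glucose uptake, measured 10.50, 10.66, 10.49 and 10.80 in CSC, against 5.59, 5.08 and 4.91 in DU145 cells. Its log2 change was 5.42 (standard error 0.18, limma adjusted p = 0.000214), and it passed without each array in turn. CCNG2, an atypical cyclin of resting cells, had a log2 change of 1.35 (limma, standard error 0.21 and adjusted p = 0.0383) and passed in 2 of the 7 fits, those without CSC arrays 1 and 4. KLF4, a factor of epithelial differentiation, lay at the fold limit, with a standard error of 0.18 and an adjusted p of 0.0495 in limma, and passed in none of the 7, where its log2 change ran from 0.85 to 1.08. IRS2 and INSR, FOXO targets of the insulin pathway, had log2 changes of 0.30 and 0.14 (adjusted p = 0.236 and 0.402 from limma). The lists were written after the study's own gene list and earlier results of these arrays were known, so their counts are not independent of those.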

How the data were processed

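RNA of 4 CSC and 3 DU145 samples was read on exon arrays, 1 array a sample. The authors made gene-level log2 values in oneChannelGUI 1.6.5 (RMA, sketch quantile scaling). The methods state 3 replicates per condition, and all 4 deposited CSC arrays were kept. The deposited log2 table has values from 0.24 to 13.79. The study dropped probe sets that were not expressed or did not change when it drew up its gene list. Whether the deposited table was filtered, and the genome build, were not given in the sources used here. Exon-level values were not analysed here.

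Clusters with 1 gene symbol (14432) were named through the array annotation, those with several (2408) or none (5171) were not. All 7 arrays entered a linear model with empirical Bayes moderation (limma 3.58.1, R 4.3.3) with group as the only term and Benjamini-Hochberg adjustment over all clusters. The fit was tested on simulated data. The limits were 0.05 for the adjusted p and 1 for the size of the log2 change. The genes, lists and motifs were chosen with earlier results of these data known. The text names the 8 measured genes, up to 4 genes per list that passed with the largest changes, at most 2 others per list, and the 5 genes closest to PDK4. Promoters are from RefSeq (GRCh38.p14), where 9 of the 10 genes, all but PDP1, had a window that could be used. Alternatives covered the thresholds, scaling, a filter on dim clusters, moderation, array weights, an unmoderated t-test (which the study names for its other assays, its array methods being moderated), a replicate block, the mean of a gene's clusters and each array left out.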

Additional observations from a re-analysis of the deposited data

Results flagged for a closer look

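KLF4 had 1 CSC array that stood apart from the other 3. It measured 6.91, 6.23, 6.34 and 6.33 on CSC arrays 1 to 4, against 5.40, 5.38 and 5.57 on DU145 arrays 1 to 3. The gap between CSC array 1 and the nearest CSC array was 0.843 of the range of the group, above Dixon's limit for 4 samples. Of 20 genes checked in this way 1 exceeded the limit, and chance alone exceeds it in about 1 group of 20. Without CSC array 1 the KLF4 log2 change was 0.85, under the fold limit.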

How the results depend on the processing

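The log2 changes of the 8 measured genes kept their signs, and moved by less than the larger SD of the groups, under every alternative that gave a value. PDK4 ran from 1.78 to 2.03 over the fits that left out an array. The filter on dim clusters removed PDK4 itself, so that 0 of the measured genes passed there. Counts of measured genes within the limits are given only as a description, since the choice of the set used this comparison. With an unmoderated t-test, which the study names for its other assays and not for the arrays, 43 clusters, 0 measured genes and 2 listed genes passed after adjustment (0 in the pyruvate and HIF lists and 1 each in the PPAR and FOXO lists), and 826 clusters before it. Same-numbered CSC and DU145 arrays had deviations correlated at 0.070, -0.015 and 0.048, which does not make them pairs. With the replicate block, 0 clusters passed in limma, and hence 0 of the measured and listed genes. At an unadjusted p of at most 0.05 it gave 3995 clusters, against 4335 without the block. The PDK4 log2 change was 1.78 (standard error 0.12). CSC array 4 has no DU145 array of its number, so it adds nothing to that contrast. The block also leaves fewer degrees of freedom, so nothing is read from its loss of calls. The count of clusters that passed, 286, was 495 with array weights, 430 after a further quantile normalization, 413 with median centring (192 higher and 221 lower, against 159 and 127), 957 at an unadjusted p with the fold limit and 450 with no fold limit. Quantile normalization left 1 of the 2 PPAR targets and 3 of the 5 genes closest to PDK4. With array weights, median centring or quantile normalization KLF4 was lost, so that 2 of the 3 FOXO targets passed. The filter on dim clusters removed CCNG2 and also left 2. HIF targets that passed went from 2 to 3 with median centring, quantile normalization or that filter. With an array left out, the count of clusters ran from 56 to 279 (86 with CSC array 2 left out, 136 with CSC array 3, 56 with DU145 array 1, 59 with DU145 array 2 and 129 with DU145 array 3), that of measured genes from 0 to 1 (0 with DU145 array 1 left out, where the PDK4 log2 change was 1.86), that of listed genes from 2 to 8 (2 without CSC array 2, CSC array 3, DU145 array 1 or DU145 array 2, 4 without DU145 array 3; pyruvate list 0 to 1, PPAR 1 to 2, HIF 0 to 2, FOXO 1 to 3), and the closest genes retained from 2 to 4. The cause of these shifts was not tested.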
